A study of Mus musculus with 2 samples.

Results

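The core-binding factors are 4 genes of the mouse genome in these data: the DNA-binding subunits Runx1, Runx2 and Runx3 and their shared partner Cbfb. They were taken by symbol from the 32285 genes listed for each library, and all 4 were found. Runx1 was chosen because its UMI counts in proximal tubule cells differed between the libraries, so its levels and those of the other members are given as descriptions, with no test. The series holds 2 single-cell RNA libraries of the kidney of C57BL/6 males aged 9 weeks, each from 1 mouse that underwent bilateral renal ischemia-reperfusion surgery and was sacrificed 24 h later. The control mouse received saline and the other mouse received JPI-289, a poly (ADP-ribose) polymerase inhibitor, at 100 mg/kg, both into the peritoneal cavity just before reperfusion. There was no uninjured kidney among the samples, so both levels of every gene are levels after ischemia, and differences between 2 mice, 2 cell suspensions and 2 treatments cannot be told apart.

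A RUNX protein binds DNA through its Runt domain, and CBFβ, which does not bind DNA itself, joins it and strengthens that binding. RUNX1 is known for its role in the formation and maturation of blood cells, RUNX2 for bone formation, and RUNX3 for the development of T lymphocytes and other leukocytes. In epithelia, RUNX factors act at enhancers together with AP-1 and SMAD proteins, and they recruit either corepressors of the TLE family or coactivators such as p300 and CBP.

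In GRCm38, Runx1 (ENSMUSG00000022952) lies on the minus strand at chr16:92601466-92826149, Runx2 (ENSMUSG00000039153) on the minus strand at chr17:44495987-44814797, Runx3 (ENSMUSG00000070691) on the plus strand at chr4:135120652-135177990 and Cbfb (ENSMUSG00000031885) on the plus strand at chr8:105170674-105217989. The Runx genes are each transcribed from a distal and a proximal promoter, and the counts sum over both. RefSeq windows of 300 bases around a start (250 before and 50 after, build GRCm38.p6) were found for all 4 genes: 2 for Runx1, 2 for Runx3, 1 for Runx2 and 1 for Cbfb. The 3 windows that hold a RUNX core motif, AACCACA, are shown, with the proximal window of Runx1, which does not. Matches to AACCACA, searched on both strands (reverse TGTGGTT), are in capitals, and each sequence runs 5′ to 3′ on the strand of its gene.
Runx1 distal window, minus strand, chr16:92826025-92826324: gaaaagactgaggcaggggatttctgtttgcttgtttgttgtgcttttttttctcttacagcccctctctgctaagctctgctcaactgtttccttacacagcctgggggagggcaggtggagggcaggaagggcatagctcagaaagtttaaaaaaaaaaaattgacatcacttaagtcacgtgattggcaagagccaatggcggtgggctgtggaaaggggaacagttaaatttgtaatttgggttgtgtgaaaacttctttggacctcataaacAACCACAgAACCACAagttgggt
Runx2 window, minus strand, chr17:44814578-44814877: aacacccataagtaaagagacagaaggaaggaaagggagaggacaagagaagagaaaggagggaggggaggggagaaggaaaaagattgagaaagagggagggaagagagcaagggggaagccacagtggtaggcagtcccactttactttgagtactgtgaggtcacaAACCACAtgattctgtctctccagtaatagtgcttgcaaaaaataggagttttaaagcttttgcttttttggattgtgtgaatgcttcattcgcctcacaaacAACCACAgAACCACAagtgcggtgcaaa
Runx3 distal window, plus strand, chr4:135120395-135120694: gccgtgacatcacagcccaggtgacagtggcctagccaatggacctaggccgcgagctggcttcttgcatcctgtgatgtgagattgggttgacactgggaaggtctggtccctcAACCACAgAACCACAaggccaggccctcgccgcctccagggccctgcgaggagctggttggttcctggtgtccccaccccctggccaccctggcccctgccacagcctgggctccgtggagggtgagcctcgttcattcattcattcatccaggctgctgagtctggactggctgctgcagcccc
Runx1 proximal window, minus strand, chr16:92697280-92697579: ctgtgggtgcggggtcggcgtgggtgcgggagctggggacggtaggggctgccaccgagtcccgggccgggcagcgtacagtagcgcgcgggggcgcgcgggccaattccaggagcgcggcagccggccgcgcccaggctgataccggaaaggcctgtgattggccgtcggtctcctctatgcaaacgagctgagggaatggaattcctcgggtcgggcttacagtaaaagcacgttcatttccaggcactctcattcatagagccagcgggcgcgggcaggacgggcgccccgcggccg
The longest run shared by the first 3 of these windows was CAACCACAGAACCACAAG, 18 bases with a pair of AACCACA motifs. Its first base stood 27 bases after the start in Runx1, 22 bases after it in Runx2 and 136 bases before it in Runx3. Among 32851 promoter windows of this length, 4 held the run, those of Runx1, Runx2, Runx3 and Gm16225, whose window overlaps that of Runx3 on the other strand. AACCACA itself was in 1731 windows, or 5.27%. The proximal windows of Runx1 and Runx3 and the window of Cbfb held no match, which says only that these letters are not in those 300 bases. The AP-1 motif TGANTCA, present in 7.81% of the windows, was in no window of the 4 genes.

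After cells were called, 3753 cells were kept for control and 5041 for JPI-289, with a median of 2053 and 1866 UMIs (unique molecular identifiers, each 1 captured RNA molecule) per cell. Cells were grouped by clusters whose marker genes gave them a name, and the 4 members took no part in the clustering. A name ends in "-like" because it comes from markers. Proximal tubule (PT)-like cells numbered 1801 and 1646, endothelial (EC)-like cells 512 and 568, and the neutrophil-like, macrophage-like and monocyte-like cells, pooled as leukocytes with the few lymphocyte-like cells, 401 and 1051. Levels are CPM, the UMIs of a gene in 1000000 UMIs of its class, with an exact 95% Poisson interval, and a ratio is the log2 of the JPI-289 level over the control level, after 0.5 UMI was added to each, with an exact 95% binomial interval. With 1 library per condition these intervals cover counting error only, and no test between conditions was possible. PT-like cells came from different clusters in the libraries: 4 clusters (2, 5, 14 and 17) held nearly all control cells and 3 others (0, 9 and 10) nearly all JPI-289 cells, and the summed level of the 10 PT markers was 18099 CPM in control and 5520 CPM in JPI-289 PT-like cells. The part of this shift in the results on PT-like cells was not tested.

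Runx1 was close to absent from PT-like cells of the control kidney and readily counted in those of the JPI-289 kidney. There were 9 Runx1 UMIs in the control PT-like cells, a level of 1.11 CPM (0.507 to 2.10), and 356 in the JPI-289 PT-like cells, a level of 48.5 CPM (43.6 to 53.8). The log2 ratio was 5.38 (4.51 to 6.59), a 41.6-fold higher level, and the intervals of the 2 levels did not overlap. When every cell had equal weight, the ratio was 4.30. Of 11311 genes with at least 20 UMIs over both libraries in PT-like cells, 7 had a higher ratio. Since Runx1 was chosen for its difference in these cells, its rank and its place in the next count were set by that choice. The members with enough UMIs there, Runx1 and Cbfb, were both higher in JPI-289 by more than 1 on the log2 scale, as were 9.11% of all genes measured in these cells, while 23.6% were lower by more than 1. The median ratio of all these genes was -0.19.

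The Runx1 UMIs were spread over many cells. In the JPI-289 library 235 of 1646 PT-like cells held at least 1 Runx1 UMI, or 14.3% (exact binomial interval 12.6 to 16.1%), of which 160 held 1, 45 held 2 and 30 held 3 or more. In the control library 7 of 1801 did, or 0.389% (0.156 to 0.799%). At an equal depth of 1000 UMIs drawn from every cell, without the 460 control cells and 508 JPI-289 cells that had fewer, the shares were 0.0746% (0.00189 to 0.415%) and 4.75% (3.58 to 6.15%). Thus the difference was also there at equal depth. As a measure of free RNA, red blood cell-like cells, a class that should lack Runx1, held 0 Runx1 UMIs in 76 control and 123 JPI-289 cells, which allows a share of up to 3.95% and 2.44%, at median depths of 1520 and 1531 UMIs against 2233 and 1854 in PT-like cells. The control PT-like share of 0.389% lay under that limit, which is too wide for so small a share to exceed. The red blood cell-like cells held 141808 and 226607 UMIs in all, most of them of red blood cell markers. Their count of 0 therefore cannot tell the control PT-like share from background. Barcodes under 100 UMIs, another measure of free RNA, held Runx1 at 13.6 CPM (6 UMIs, 4.99 to 29.6) in control and 32.0 CPM (11 UMIs, 16.0 to 57.3) in JPI-289, and the latter interval overlaps that of the JPI-289 PT-like cells. With free RNA subtracted, at the largest part that markers of other classes allow, the log2 ratio in PT-like cells was 5.97 with the profile of these barcodes and 5.601 with that of barcodes of at least 100 and under 300 UMIs. Within the JPI-289 library the distal convoluted and connecting tubule (DCT/CNT)-like cells held 4 Runx1 UMIs in 249 cells, a level of 5.72 CPM (1.56 to 14.6), below that of the PT-like cells. That was the lowest level of a tubule class in this library. Thick ascending limb-like cells stood at 22.0 CPM and collecting duct principal cell-like cells at 24.2 CPM. Collecting duct intercalated cell-like cells stood at 49.0 CPM (22.4 to 93.1, 9 UMIs) and thin limb-like cells at 136 CPM. The part of free RNA in these levels was not tested.

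**Figure D1:**
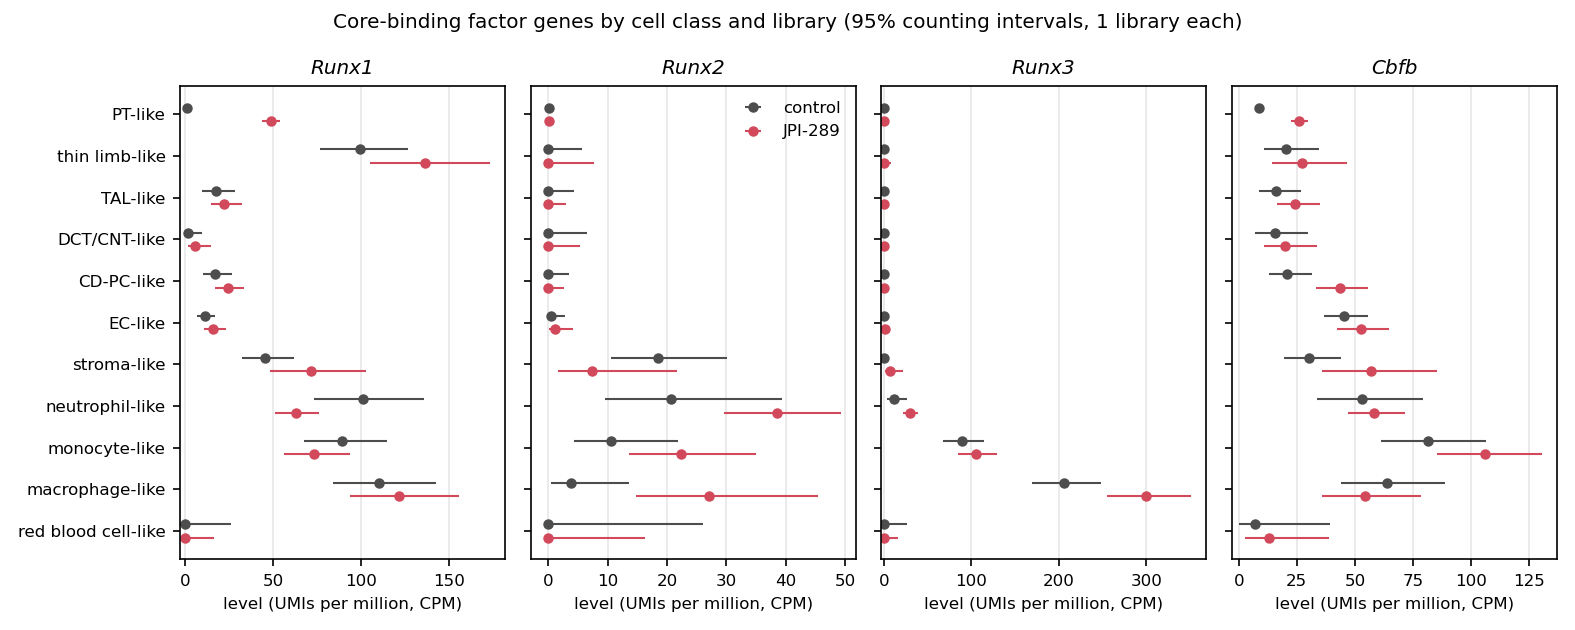
Level of each core-binding factor gene (x axis, CPM, a separate linear scale per gene) in 11 cell classes (y axis), grey for control and red for JPI-289, with points at the level and bars for the exact 95% Poisson interval. Runx1 in PT-like cells stands at 1.11 CPM in control, where the bar is hidden by the point, and at 48.5 CPM in JPI-289, while Runx2 and Runx3 are near 0 in all tubule classes.

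Leukocyte RNA in the PT-like cells was counted beside this result. The neutrophil markers summed to 262 CPM in control and 105 CPM in JPI-289 PT-like cells. Ptprc, which encodes the leukocyte antigen CD45, had 5 and 6 UMIs in PT-like cells, and Runx3, a leukocyte member of the family, had 1 and 0. The part of leukocyte RNA in the Runx1 levels was not tested.

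All 3 JPI-289 PT-like clusters carried Runx1. The level was 52.0 CPM (43.0 to 62.3) in cluster 0, led by Srxn1 and Plin2, 59.9 CPM (51.2 to 69.8) in cluster 9, with Havcr1 and Krt20 among its leading genes, and 31.7 CPM (24.8 to 39.8) in cluster 10, led by the fibrinogen genes Fgb, Fgg and Fga. Cluster 10 lay below the other two, and clusters 0 and 9 did not differ beyond their intervals. In control the levels were 0.590 CPM in cluster 2, 0.259 CPM in cluster 5, 6.43 CPM in cluster 14 and 1.13 CPM in cluster 17, from 5 UMIs or fewer each. A cluster of 254 JPI-289 cells, with the nuclear RNAs Neat1 and Malat1 among its leading genes, held 29 Runx1 UMIs, a level of 36.7 CPM (24.6 to 52.7). It stayed unnamed because its injured PT marker list, with a score of 1.34, was too close to the EC list, at 0.755. The score of its PT list was 0.448.

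**Figure D2:**
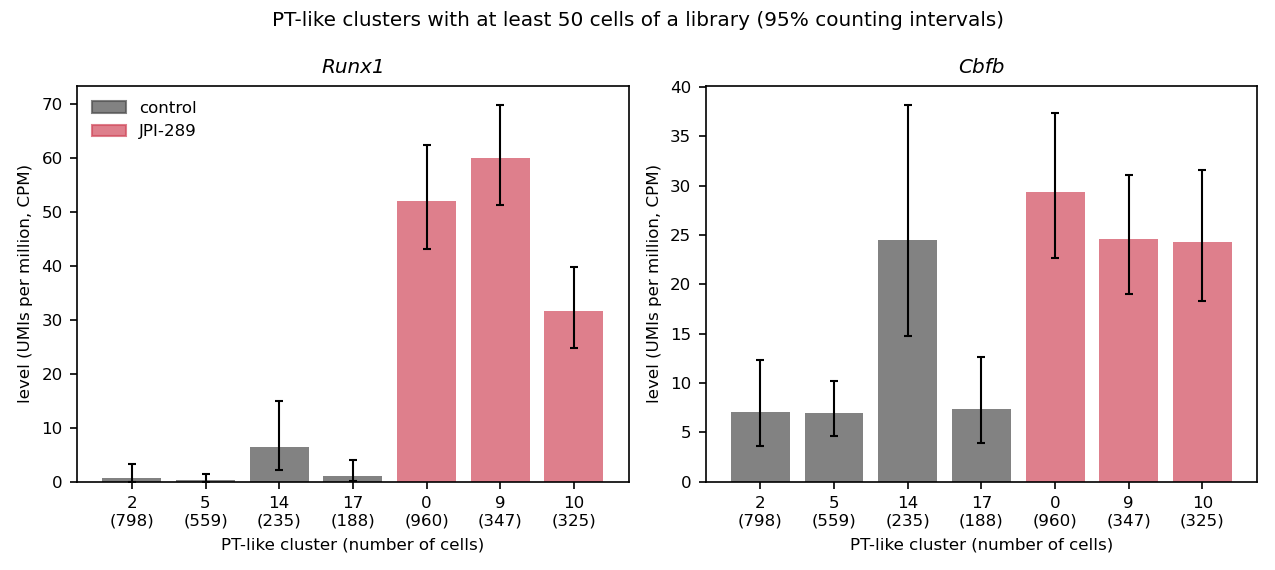
Level of Runx1 (left) and Cbfb (right) in CPM (y axis, from 0) in each PT-like cluster with at least 50 cells of a library (x axis, number of cells in brackets), grey for control and red for JPI-289, with exact 95% Poisson intervals. Runx1 stands between 31.7 and 59.9 CPM in the 3 JPI-289 clusters and at 6.43 CPM or less in the 4 control clusters, while Cbfb in control cluster 14 reaches 24.5 CPM, the range of the JPI-289 clusters.

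The level of Runx1 in JPI-289 PT-like cells did not differ beyond the intervals when single cells were split by segment markers. Cells with more UMIs of early segment (S1 and S2) than of late segment (S3) markers stood at 48.1 CPM (41.7 to 55.2), cells with more late markers at 44.4 CPM (31.8 to 60.2), and cells with no UMI of either at 50.2 CPM (41.1 to 60.8). These intervals overlap. This split is a cut on a count. Of the 1646 cells, 575 were placed as early and 81 as late, 981 held no UMI of either and 9 were ties. Among the placed cells, 292 were placed by a difference of 1 UMI. Control cells stood at 0.773, 8.23 and 0.803 CPM in the same order, from 5, 3 and 1 UMIs. By cluster the JPI-289 levels did differ. Cluster 9, with a late segment score of 1.457 and an early one of 0.815, stood at 59.9 CPM (51.2 to 69.8). Cluster 10, with -0.278 and 1.061, stood at 31.7 CPM (24.8 to 39.8), and cluster 0, with -0.129 and 0.565, at 52.0 CPM (43.0 to 62.3). The part of the segment in these levels was not tested.

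Runx1 was also compared with markers of tubular injury in the same JPI-289 cells. Cells with a UMI of Havcr1, which encodes kidney injury molecule 1, stood at 53.2 CPM (47.0 to 60.0) and those without at 38.7 CPM (31.1 to 47.5). For Krt20, a keratin of injured tubules, the levels were 53.4 CPM (47.6 to 59.7) with and 30.8 CPM (22.8 to 40.8) without, and for Lcn2, which encodes neutrophil gelatinase-associated lipocalin, 42.4 CPM (33.9 to 52.3) with and 50.9 CPM (45.0 to 57.3) without. Cells with a Krt20 UMI were thus the higher ones, and for Lcn2 the intervals overlap. Cells with a marker UMI are deeper, the median being 4234 UMIs with Havcr1 and 1237 without. After thinning to 1000 UMIs, 16 of 277 cells with Havcr1 (5.78%, 3.34 to 9.21%) and 38 of 861 cells without (4.41%, 3.14 to 6.01%) held Runx1, and these intervals overlap. For Krt20, as read from all UMIs of a cell, the shares with Runx1 in 1000 UMIs were 5.94% (4.35 to 7.89%) with and 2.52% (1.21 to 4.58%) without, and these overlap too. Among control cells with a Havcr1 UMI the Runx1 level was 2.09 CPM (0.767 to 4.55), from 6 UMIs in 294 cells.

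Among tubule classes outside the proximal tubule, Runx1 was highest in thin limb-like cells in both libraries. Its level was 99.3 CPM in control and 136 CPM in JPI-289 thin limb-like cells, from 64 and 65 UMIs, with a log2 ratio of 0.45 (-0.066 to 0.98). In thick ascending limb (TAL)-like cells it was 17.2 and 22.0 CPM, with a ratio of 0.33 (-0.61 to 1.37), and in collecting duct principal cell (CD-PC)-like cells 16.9 and 24.2 CPM, with a ratio of 0.49 (-0.35 to 1.42). None of these 3 intervals excluded equal levels. The TAL-like ratio changed direction with the choice of cells, at -0.20 with cells of the first calling step alone and -0.13 with each library clustered alone, and with equal weight of each cell it was 1.07 in TAL-like and 1.46 in CD-PC-like cells. The thin limb-like cells held 0 UMIs of Ptprc and of Runx3 in either library, and their neutrophil markers summed to 21.7 and 18.9 CPM. In the order of levels over classes of at least 15 cells, neighbours overlapped in both libraries. Control began with macrophage-like, neutrophil-like, thin limb-like and monocyte-like cells, and JPI-289 with thin limb-like, T/NK-like, macrophage-like and B-like cells, followed by monocyte-like, stroma-like and podocyte-like cells and then neutrophil-like cells. PT-like cells moved from the last but one of 15 classes in control to the tenth of 16 in JPI-289.

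In EC-like cells Runx1 stood at 10.97 CPM (22 UMIs) in control and 15.7 CPM (27 UMIs) in JPI-289, with a ratio of 0.51 (-0.35 to 1.40). It was higher in the EC-like cluster 4, led by Apln, Hspa1b and Edn1, at 22.5 CPM (13.3 to 35.5) and 31.5 CPM (18.0 to 51.1), than in cluster 7, led by the capillary genes Plvap and Igfbp3, at 3.32 CPM (0.904 to 8.499) and 9.11 CPM (4.55 to 16.3). Between these clusters the intervals did not overlap in either library. The share of genes measured in EC-like cells that were past 1 was 5.24% higher and 18.8% lower in JPI-289, and neither Runx1 nor Cbfb was among them. When every cell had equal weight, the EC-like ratio of Runx1 was 1.69.

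The stroma-like cells, which join mural and fibroblast cells, held Runx1 at 45.2 CPM (39 UMIs) in control and 71.7 CPM (29 UMIs) in JPI-289, with a ratio of 0.67 (-0.080 to 1.40). A split of this class into cells led by mural and by fibroblast markers was added after the data were seen, and gave 59.1 and 67.8 CPM in the mural-led and 26.8 and 84.2 CPM in the fibroblast-led cells, the last from 8 UMIs in 19 cells.

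Among leukocytes, Runx1 was lower in the JPI-289 library in neutrophil-like cells, while the intervals in macrophage-like and in monocyte-like cells held equal levels. Pooled leukocytes stood at 99.3 and 78.9 CPM, with a ratio of -0.33 (-0.62 to -0.038). Neutrophil-like cells stood at 101 CPM (44 UMIs in 196 cells) in control and 62.7 CPM (101 UMIs in 653 cells) in JPI-289, with a ratio of -0.70 (-1.21 to -0.14). Cells of the first step of cell calling alone, which have more RNA, gave -0.12. Macrophage-like cells stood at 110 and 122 CPM, with a ratio of 0.14 (-0.39 to 0.68) that was 0.81 when every cell had equal weight, and monocyte-like cells at 89.0 and 73.1 CPM, with a ratio of -0.28 (-0.82 to 0.26). For the last 2 classes together the ratio was -0.11 (-0.48 to 0.27), and 0.34 when every cell had equal weight. Among genes measured in neutrophil-like cells, 11.5% were higher and 10.4% lower in JPI-289 by more than 1, and of the 4 members only Runx3 passed that size there.

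**Figure D3:**
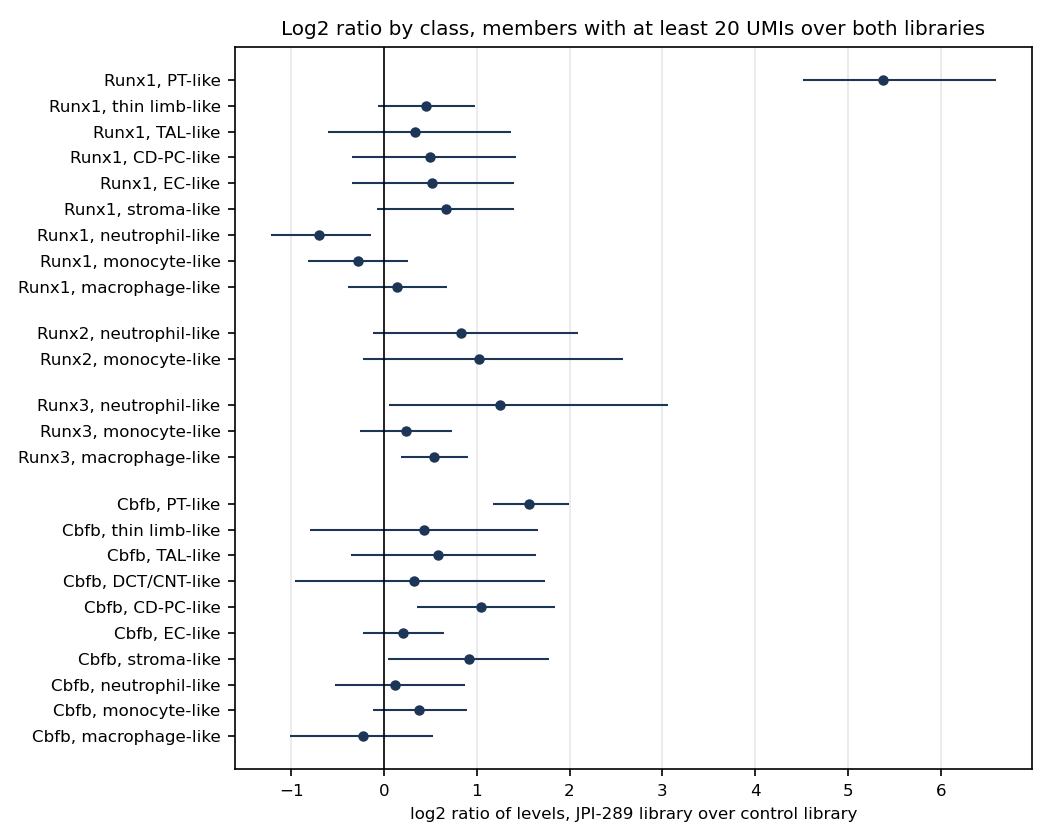
Log2 ratio of the JPI-289 level over the control level (x axis) for each member in those of the 11 classes above (y axis) where both libraries together held 20 UMIs or more, with exact 95% binomial intervals that cover counting error only. Runx1 in PT-like cells, at 5.38, lies to the right of every other interval drawn, and Runx1 in neutrophil-like cells, at -0.70, is the interval drawn that lies wholly below 0.

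Runx2 was counted in leukocytes and stroma and close to absent elsewhere. It had 1 UMI in control and 1 in JPI-289 PT-like cells, and 0 in the thin limb-like, TAL-like, CD-PC-like and DCT/CNT-like cells of both libraries, which in the JPI-289 CD-PC-like cells allows a level of up to 2.07 CPM (3 UMIs). In leukocytes together it stood at 10.96 CPM (18 UMIs) in control and 31.3 CPM (100 UMIs) in JPI-289, with a ratio of 1.48 (0.78 to 2.33). The share of genes measured in pooled leukocytes that were higher by more than 1 was 7.75%, with 17.4% lower, and of the 4 members only Runx2 was past that size. The leukocyte classes differed in number between the libraries, so the values by class stand beside this one. Neutrophil-like cells stood at 20.7 and 38.5 CPM (9 and 62 UMIs), with a ratio of 0.83 (-0.12 to 2.09). Macrophage-like cells stood at 3.74 and 27.1 CPM (2 and 14 UMIs) and monocyte-like cells at 10.6 and 22.4 CPM (7 and 19 UMIs), and together they gave a ratio of 1.63 (0.59 to 2.93), where 8.92% of the genes measured were higher by more than 1. The levels of all 3 classes were thus higher in JPI-289. The interval of neutrophil-like cells held 0, as did that of monocyte-like cells, with a ratio of 1.02 (-0.23 to 2.58). It lay above 0 for the last pair together and for macrophage-like cells, whose UMIs were under the minimum of 20 for a measured gene. In stroma-like cells Runx2 had 16 UMIs in control and 3 in JPI-289, with levels of 18.5 and 7.41 CPM. Of the 16, 12 were in fibroblast-led cells, where the 19 JPI-289 cells held 0, which allows up to 31.6 CPM against 32.2 CPM in control.

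Among classes of at least 15 cells, Runx3 was highest in macrophage-like and then monocyte-like cells in both libraries. JPI-289 T/NK-like cells came next at 61.7 CPM (30.8 to 110.4), an interval that overlaps that of monocyte-like cells. Macrophage-like cells stood at 206 CPM (110 UMIs) in control and 300 CPM (155 UMIs) in JPI-289, with a ratio of 0.54 (0.18 to 0.91). Monocyte-like cells stood at 89.0 and 105 CPM (59 and 89 UMIs), with a ratio of 0.23 (-0.25 to 0.74), and neutrophil-like cells at 11.5 and 29.8 CPM (5 and 48 UMIs), with a ratio of 1.25 (0.053 to 3.06). The ratios were above 0 in all 3 classes, while pooled leukocytes gave -0.17 (-0.44 to 0.11), with 106.6 and 94.9 CPM. Neutrophil-like cells, which hold less Runx3, were 196 of 401 leukocytes in control and 653 of 1051 in JPI-289. PT-like, thin limb-like, TAL-like, CD-PC-like and DCT/CNT-like cells held 1 Runx3 UMI in all, over both libraries.

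Because 5′ ends were counted, a UMI stands for a molecule whatever the length of its transcript, but capture can differ between genes, so the make-up of the Runx UMIs is compared between classes and not between genes. Runx1 was 99.7% of 357 Runx UMIs in JPI-289 PT-like cells and 100% in thin limb-like, TAL-like and CD-PC-like cells. In macrophage-like cells it was 34.5% in control and 27.2% in JPI-289, with Runx3 at 64.3% and 66.8%. In neutrophil-like cells Runx1 was 75.9% of 58 UMIs in control and 47.9% of 211 in JPI-289, where Runx2 was 29.4% and Runx3 22.7%. Control PT-like cells held only 11 Runx UMIs, 81.8% of them Runx1 and 9.09% each Runx2 and Runx3. The shares of control TAL-like and CD-PC-like cells rest on 15 and 18 UMIs. Where at least 20 Runx UMIs were counted, tubule classes thus held Runx1 almost alone, and leukocytes a mixture.

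**Figure D4:**
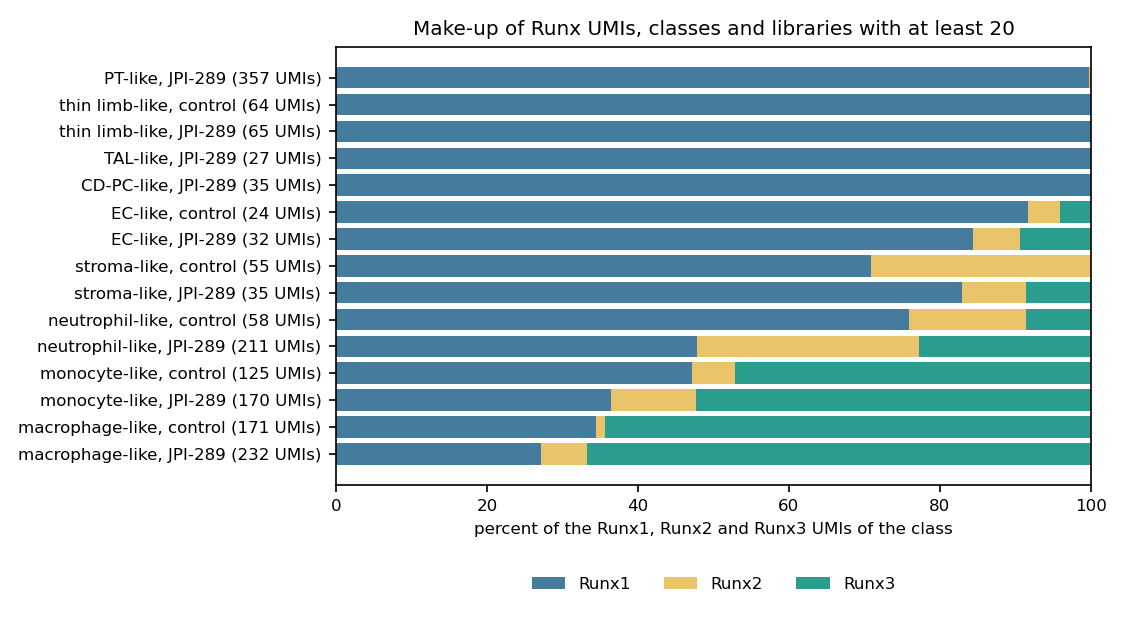
Share (x axis, percent) of Runx1 (blue), Runx2 (yellow) and Runx3 (green) among the Runx UMIs of each class and library with at least 20 such UMIs (y axis, with their number). Tubule classes are blue throughout, at 99.7% or more Runx1, and macrophage-like cells hold 64.3% Runx3 in control and 66.8% in JPI-289.

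Cbfb, the shared partner, was counted in every tubule, endothelial, stromal and myeloid class. In PT-like cells it stood at 8.74 CPM (71 UMIs, 6.83 to 11.02) in control and 26.0 CPM (191 UMIs, 22.5 to 30) in JPI-289, with a ratio of 1.57 (1.17 to 1.99), the rank 345 of the 11311 genes measured. The intervals of the levels did not overlap. By cluster the JPI-289 levels were 29.3, 24.5 and 24.3 CPM in clusters 0, 9 and 10, and the control levels 7.08, 6.99 and 7.38 CPM in clusters 2, 5 and 17. Control cluster 14, led by Slc5a12 and nuclear RNAs, stood at 24.5 CPM (14.7 to 38.2) in 235 cells, which overlaps the JPI-289 clusters. Its Runx1 level of 6.43 CPM (2.09 to 15.02) lay below all 3 of them. After thinning to 1000 UMIs, Cbfb was held by 0.820% (0.410 to 1.46%) of the control PT-like cells, and by 2.20% (1.43 to 3.23%) of those from JPI-289, and these intervals overlap.

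Cbfb was also higher in JPI-289 CD-PC-like cells, at 20.7 CPM (22 UMIs) in control and 43.5 CPM (63 UMIs) in JPI-289, with a ratio of 1.05 (0.35 to 1.84), where 7.87% of the genes measured were higher by more than 1. In stroma-like cells the levels were 30.1 and 56.8 CPM, with a ratio of 0.92 (0.041 to 1.78), or 1.82 with equal weight of each cell. The mural-led cells gave 1.23 (0.21 to 2.34), from 14 and 21 UMIs. The fibroblast-led cells gave -0.35 (-3.81 to 1.55), from 12 and 2 UMIs. EC-like cells stood at 45.4 and 52.5 CPM (91 and 90 UMIs), with a ratio of 0.21 (-0.23 to 0.65), neutrophil-like cells at 52.9 and 58.4 CPM, macrophage-like cells at 63.6 and 54.2 CPM and monocyte-like cells at 81.5 and 106 CPM, and in these 4 classes the intervals of the ratio held 0. In thin limb-like, TAL-like and DCT/CNT-like cells Cbfb lay between 15.7 and 27.2 CPM.

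The proteins that RUNX factors recruit were counted in PT-like cells from a list of 20 genes for corepressors, coactivators and modifying enzymes. Of these, 18 were measured, 2 were higher by more than 1 (9.11% of all genes measured), 2 were lower by more than 1 (23.6% of all), and the median ratio was 0.27, beside -0.19 for all genes. The corepressor Tle1 stood at 4.19 and 24.1 CPM, with a ratio of 2.51 (1.99 to 3.10), and the arginine methyltransferase Prmt1 at 34.2 and 96.2 CPM, with a ratio of 1.49 (1.29 to 1.70). The acetyltransferase Kat6a had a ratio of -1.08 (-1.54 to -0.66) and the methyltransferase Kmt2a of -1.06 (-1.41 to -0.72). The most abundant members, Tle5, Ncor1 and Stub1, had ratios of -0.31, -0.28 and 0.21. In pooled leukocytes 17 were measured, 3 were higher and 3 lower by more than 1, beside 7.75% and 17.4% of all genes, and the median was 0.30, beside -0.12 for all genes. There Tle3 had a ratio of 1.16 (0.87 to 1.47) and Crebbp, which encodes CBP, of 1.01 (0.70 to 1.34), and the ubiquitin ligase Stub1 had a ratio of -1.12 (-1.47 to -0.77) and Kmt2a of -1.04 (-1.53 to -0.55). Tle5 and Ncor1, the most abundant there, had ratios of -0.07 and 0.33. In neutrophil-like cells and in macrophage-like and monocyte-like cells together the ratios had the same signs, 0.83 and 0.92 for Tle3, 1.08 and 0.83 for Crebbp, -0.80 and -1.11 for Stub1, and -0.87 and -1.15 for Kmt2a.

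All 5 SMAD genes listed, which encode signal transducers of TGFβ and bone morphogenetic proteins, were measured in PT-like cells, and 2 were higher by more than 1, beside 9.11% of all genes. Smad3 stood at 12.4 and 32.6 CPM, with a ratio of 1.39 (1.05 to 1.74), and Smad1 at 17.0 and 38.6 CPM, with a ratio of 1.18 (0.88 to 1.49). Smad4 had a ratio of 0.91, Smad2 of 0.71 and Smad5 of 0.48, so all 5 were above 0, as were 41.9% of the genes measured in these cells. In pooled leukocytes 4 of 5 were above 0, as were 43.9% of all genes measured there, none was past 1 and the median was 0.79. The ratios there were 0.96 (0.15 to 1.92) for Smad3, 0.92 (0.60 to 1.26) for Smad4, 0.79 (0.14 to 1.53) for Smad5, 0.22 (-0.18 to 0.65) for Smad2 and -0.17 (-0.82 to 0.53) for Smad1. The make-up of the pool differed, so ratios in neutrophil-like cells and in macrophage-like and monocyte-like cells together follow. Smad3 had 0.50 (-0.53 to 1.87) and 0.66 (-0.73 to 2.27), both intervals holding 0. Smad4 had 0.81 (0.28 to 1.41) and 0.91 (0.49 to 1.36), and Smad5 1.34 (-0.38 to 4.76) and 1.07 (0.33 to 1.90). Smad2 had 0.01 and 0.55, and Smad1 -0.45 (3 and 9 UMIs) and 0.45.

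Of 17 lineage factors listed as binding with RUNX1, 6 were measured in PT-like cells, 2 were above 0 and the median was -0.33. Ets1, an ETS factor, stood at 2.22 and 13.1 CPM, with a ratio of 2.53 (1.83 to 3.38), and was the member past 1, beside 9.11% of all genes higher and 23.6% lower by that size. The AP-1 genes Jun and Fos had ratios of -0.97 (-1.06 to -0.89) and -0.61 (-0.70 to -0.52), the interferon regulatory factor gene Irf8 of -0.79 (-1.21 to -0.39), and Cebpb and Cebpa of -0.05 and 0.26. In pooled leukocytes 11 were measured, 5 were above 0, 1 was higher and 1 lower by more than 1, beside 7.75% and 17.4% of all genes, and the median was -0.38. Spi1, which encodes PU.1, stood at 671 and 820 CPM, with a ratio of 0.29 (0.19 to 0.39), Cebpb had a ratio of 0.23, and Fos and Jun had ratios of -0.75 and -0.84. Ets1 was the higher one, at 1.63 (0.97 to 2.42) from 20 and 123 UMIs, of which neutrophil-like cells held 5 and 6 and macrophage-like and monocyte-like cells 8 and 2. Lyl1 was the lower one, at -2.04 (-3.14 to -1.07) from 28 and 13 UMIs. By class, neutrophil-like cells gave ratios of 0.43 for Spi1, -0.01 for Cebpb, -0.66 for Fos and -0.57 for Jun. In macrophage-like and monocyte-like cells together they were 0.18, 0.09, -0.28 and -0.45 in the same order. The pooled values of Cebpb, Fos and Jun thus lay outside those of both classes.

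Genes described as direct targets were few in these cells. Of 10 listed for RUNX1, 5 were measured in PT-like cells, 1 was higher and 2 were lower by more than 1, beside 9.11% and 23.6% of all genes, and the median was -0.65. Cdkn1a, which encodes the cell cycle inhibitor p21, stood at 68.8 and 368 CPM, with a ratio of 2.42 (2.29 to 2.55). The other 4 had between 20 and 40 UMIs and ratios below 0. They were the macrophage and megakaryocyte genes Csf1r, Itga2b and Pf4, and Myl9, a leading gene of the stroma-like cells here. In pooled leukocytes 5 were measured: Csf1r, the receptor of macrophage colony-stimulating factor, at -1.84 (-2.03 to -1.65), the chemokine gene Pf4 at -1.59 (-1.68 to -1.51), the transcription factor gene Nfe2 at 1.30 (0.82 to 1.85), Pik3cd at -0.59 and Cdkn1a at -0.08. The pool differed in make-up, with macrophage-like and monocyte-like cells being 200 of 401 in control and 302 of 1051 in JPI-289. Within these 2 classes together the ratio was -1.20 (-1.40 to -1.002) for Csf1r, -0.83 (-0.91 to -0.74) for Pf4, -0.01 for Nfe2 and 0.43 (0.29 to 0.56) for Cdkn1a. In neutrophil-like cells Nfe2 had a ratio of 0.91 (0.33 to 1.60) and Cdkn1a of -0.60 (-0.79 to -0.40), so the pooled values of these genes are not those of either class. Of 8 RUNX2 targets, Spp1, which encodes osteopontin, stood at 8227 and 11363 CPM in PT-like cells, with a ratio of 0.47 (0.45 to 0.48), and Vegfa at 69.1 and 22.1 CPM, with a ratio of -1.64 (-1.91 to -1.39). In pooled leukocytes Vegfa had a ratio of 0.39 (-0.05 to 0.86), Spp1 of 0.01 and the collagenase gene Mmp13 of -0.66 (-1.65 to 0.36). In neutrophil-like cells Spp1 had a ratio of 0.12 (0.016 to 0.22) and Vegfa of 0.03 (-0.67 to 0.84). In macrophage-like and monocyte-like cells together Spp1 had -0.40 (-0.49 to -0.31), Vegfa 0.65 (0.07 to 1.26) and Mmp13 0.11 (-0.88 to 1.13). The pooled Spp1 value thus lay between ratios of opposite sign. The bone genes Ibsp, Bglap and Sp7 had 0 UMIs in PT-like cells and pooled leukocytes. Of 8 RUNX3 targets, Zbtb7b had a ratio of -0.03 in PT-like cells and -0.40 in pooled leukocytes. By class, Zbtb7b had -0.12 (-0.85 to 0.73) in neutrophil-like cells and -1.14 (-2.01 to -0.34) in macrophage-like and monocyte-like cells together. Il2rb, an interleukin receptor subunit of T and NK cells, had 1 and 54 UMIs in pooled leukocytes, beside 5 and 77 cells named T/NK-like.

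The genes whose levels followed each member over 25 sums of a class and library, by Pearson correlation of log2(CPM + 1) among 10214 genes, are given as a description. The points share libraries, depth and the contrast between leukocytes and epithelium. For Runx1 they were Rbpj (r = 0.87), Myo9b, Sbno2, H3f3b and Tor1a, for Runx2 Pde1b (r = 0.95), Batf, Apbb1ip, Itga4 and Dock11, for Runx3 Rgs1 (r = 0.97), Ctss, Jaml, Il10ra and Pik3r5, and for Cbfb Elf4 (r = 0.90), Klf13, Trafd1, Srgn and Map3k8. With log2(CPM + 10), 3 of the 5 genes stayed for Runx1, 3 for Runx2, 2 for Runx3 and 1 for Cbfb.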

How the data were processed

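Each cell suspension was made into a library with the Chromium Next GEM 5′ kit (version 2) and sequenced on a HiSeq2500. The authors aligned the reads to mm10 and used Cell Ranger 5.0.1 to count the UMIs of each gene in each barcode, and the deposited values are raw counts of all barcodes, 38328760 UMIs in control and 35548396 in JPI-289. The 5′ counts do not tell the promoters of a gene apart.

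Cells were called again from the counts, first by total UMIs (above the 99th percentile of the top 3000 barcodes divided by 10), then among barcodes of at least 500 UMIs by their profile against that of the barcodes ranked 45000 to 90000 (10000 simulations, false discovery rate 0.01), giving 4298 and 5437 cells. Of these, 545 and 396 with over 50% mitochondrial UMIs were left out, the limit the study used. A count of 23 barcodes was shared by cells of both libraries. Counts scaled to 10000 per cell were clustered over both libraries with scanpy 1.11.5 and leidenalg 0.10.2 (2000 variable genes without the 4 members, 30 components, 20 neighbours, resolution 1). Clusters were named from 23 marker lists where the leading list had a score of at least 1, at least 3 detected markers and a lead of at least 1 over the next cell family. In all, 13 control and 255 JPI-289 cells stayed unnamed. Doublets were not removed, since the caller marked 1 cell of both libraries.

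UMIs were summed per class and library. Levels have exact Poisson intervals, shares exact Clopper-Pearson intervals and log2 ratios exact binomial intervals (95%, scipy 1.17.1), and a count of 0 allows 3 UMIs or cells. A gene counted as measured with at least 20 UMIs over both libraries. Cell calling and the log2 ratio with its interval were tested on data simulated from the control library, and the other steps were not. Named were the 4 members in every class, and per gene list the 3 measured genes with the most UMIs and the 2 with the largest ratio in each direction from at least 50 UMIs. Pf4 and Myl9 in PT-like cells, Pik3cd and Lyl1 in leukocytes, and Ibsp, Bglap and Sp7 were named beyond this rule, after their values were seen. The members, marker lists and gene lists were chosen with earlier results of these data known. Coordinates are of GRCm38, the build of mm10, from GENCODE. Alternatives covered cell calling, filters, doublet scores, clustering, scaling, weighting, the value added and free RNA.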

Additional observations from a re-analysis of the deposited data

Results flagged for a closer look

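The Runx1 log2 ratio was 5.38 in PT-like cells and -0.70 in neutrophil-like cells, opposite directions whose counting intervals both exclude 0. With 1 library per condition this difference between the classes was not tested. In neutrophil-like cells the ratio was -0.12 with cells of the first calling step alone, and the shares with Runx1 at equal depth overlapped.

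Barcodes of at least 100 and under 300 UMIs were not called as cells and served only as a profile of free RNA. In JPI-289 they held Runx1 and Cbfb above the control level. Runx1 had 53 UMIs in control (4.07 CPM, 3.05 to 5.32) and 406 in JPI-289 (34.5 CPM, 31.3 to 38.1), and Cbfb had 124 (9.52 CPM, 7.92 to 11.3) and 235 (19.998 CPM, 17.5 to 22.7). Runx2 and Runx3 had 12 UMIs or fewer in these barcodes. The Runx1 level there lay below that of JPI-289 PT-like cells (48.5 CPM) and above that of JPI-289 DCT/CNT-like cells (5.72 CPM), the lowest tubule class. The intervals of JPI-289 TAL-like (22.0 CPM, 14.5 to 32.0) and CD-PC-like cells (24.2 CPM, 16.8 to 33.6) overlapped it. That of collecting duct intercalated cell-like cells (49.0 CPM, 22.4 to 93.1) overlapped it too, and thin limb-like cells stood higher, at 136 CPM. In the called cells left out for over 50% mitochondrial UMIs, Runx1 had 0 UMIs in control, which allows up to 1.96 CPM, and 15 in JPI-289 (14.3 CPM, 7.99 to 23.6).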

How the results depend on the processing

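Of 346 values that the alternatives gave for the log2 ratios, 338 stayed inside the counting interval of the reported ratio. This count does not measure robustness, because several alternatives only rescale the same counts and some intervals are wide. For Cbfb in DCT/CNT-like cells the interval was -0.96 to 1.74. Macrophage-like and monocyte-like cells also entered it both singly and together. With equal weight of each cell, Runx1 stood at 4.30 in PT-like, 1.69 in EC-like, 1.46 in CD-PC-like, 0.81 in macrophage-like and 0.34 in macrophage-like and monocyte-like cells together, Cbfb at 1.82 in stroma-like cells, and Runx3 at 0.67 in the last 2 leukocyte classes. Cells of the first calling step alone gave -0.12 for Runx1 in neutrophil-like cells. The cause was not tested. Ratios whose interval held 0 changed sign for Runx1 in TAL-like cells (-0.20 with the first step, -0.13 with each library clustered alone), Cbfb in DCT/CNT-like cells (-0.16 with the first step) and Cbfb in neutrophil-like cells (-0.08 with equal weight). The sign also changed for Runx1 in macrophage-like and monocyte-like cells together, from -0.11 to 0.34 with equal weight. Over all alternatives Runx1 in PT-like cells ranged from 4.30 to 5.97 and Cbfb from 1.40 to 1.76. The subtraction of free RNA with the profile of barcodes of at least 100 and under 300 UMIs, and counting the unnamed cluster as PT-like, were chosen after seeing the data. At resolution 0.5 no TAL-like or DCT/CNT-like class was named, so no value was had there. Thinning to 500 UMIs gave 2.43% of JPI-289 PT-like cells with Runx1. With a minimum of 5 UMIs in place of 20, 2 RUNX3 targets and 11 lineage factors were measured in PT-like cells, and 9 RUNX1 and 6 RUNX3 targets in pooled leukocytes. No paired analysis was possible because each condition is 1 library of 1 mouse, which also limits every ratio to counting error. Depth limits Runx2 and Runx3 in tubule classes to upper bounds.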

Other observations

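Members were also counted in small classes, most of which allow no comparison. T/NK-like cells, 77 in JPI-289 and 5 in control, held Runx1 at 123 CPM (77.3 to 186.9), Runx3 at 61.7 CPM (11 UMIs), Cbfb at 50.5 CPM (9 UMIs) and Runx2 at 22.4 CPM (4 UMIs) in JPI-289. The 19 B-like cells of JPI-289 held 4 Runx1, 1 Runx2, 0 Runx3 and 4 Cbfb UMIs. Urothelium-like cells, 15 in control with a median of 36615 UMIs and 3 in JPI-289, held 22 and 8 Runx1 UMIs, levels of 43.6 and 133 CPM with a log2 ratio of 1.67 (0.24 to 2.84), 19 and 0 Cbfb UMIs, and no Runx2 or Runx3. Podocyte-like cells held 1 Runx1 UMI in 17 control cells and 5 in 51 JPI-289 cells, and collecting duct intercalated cell-like cells 3 in 43 and 9 in 62. Their Cbfb UMIs were 3 and 5 in podocyte-like and 2 and 5 in intercalated cell-like cells. Platelet-like cells held 1 Runx1 and 1 Cbfb UMI in 15 control cells and 1 and 0 in 24 JPI-289 cells, and no Runx2 or Runx3.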
